A study of Saccharomyces cerevisiae with 64 samples.

Results

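DNA replication was followed through S phase in budding yeast (Saccharomyces cerevisiae) cells that overexpressed (OE) the forkhead transcription factor Fkh1, and the pulses were compared with each other within that strain, 45 against 35 min and 55 against 45 min. The samples were taken by their labels: 12 of the 64 samples of the series, made up of 2 immunoprecipitated (IP) and 2 Input libraries at each of 3 times. The authors deposited their signal as 3 of 13 combined columns, 1 for each time. The Fkh1 OE strain is labelled as wild type with Fkh1 under a galactose-inducible promoter (WT pGAL-Fkh1), and the no OE strain, used for comparison at the same 3 times, as WT pGAL. Both strains were given galactose, and neither was given a drug. Cells were arrested before S phase at 25 °C with the mating pheromone α-factor (7.5 nM, 3 h), moved to 2% galactose for 2 h with the block kept on, and released with Pronase E. Equal amounts of barcoded genomic DNA were pooled before the BrdU IP, in what the protocol calls quantitative BrdU-IP-seq. The thymidine analogue BrdU, at 800 µg/mL, was given for 15 min in each case, from 20 to 35, from 30 to 45 or from 40 to 55 min after release, so that neighbouring pulses shared 5 min. Per the growth protocol, cells were selected for a plasmid where needed, and the labels do not say which strains carried one or whether replicates came from separate cultures.

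Replication starts at origins that are loaded with the replicative helicase in G1 and are activated at different times in S phase, and the DNA between them is copied by forks that move outward and meet. A pulse of BrdU marks the DNA made while it lasts, so that DNA copied before the pulse begins is left unlabelled. Fkh1 and its relative Fkh2 regulate genes expressed in G2 and M phase, and they also bind near a group of early origins and are known to favour their early activation. In the authors' deposited table of RNA from G1-arrested cells, FKH1 stood at 1458 FPKM with Fkh1 OE, against 20.9 FPKM without, 69.6-fold higher (the authors' q = 0.000327), and FKH2 stood at 13.3 FPKM with Fkh1 OE, against 14.3 FPKM without (the authors' q = 0.767).

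All BrdU signal is given in the relative units of the deposited table, in which the authors merged the libraries of each group. There is 1 column a group, so no value has a replicate error, a test or a known depth, and "rose" and "fell" are used from 2-fold on. The scaling of the columns against each other is not stated in the sources at hand. The mean over the 16 nuclear chromosomes was 0.0839, 0.207 and 0.235 in Fkh1 OE cells at 35, 45 and 55 min. The mean over the mitochondrial genome, whose replication is not tied to S phase, was 0.0530, 0.0331 and 0.0196 in the same columns. Division by the nuclear mean lowers every fold of 45 against 35 min 2.47 times, and division by the mitochondrial mean raises it, since the mitochondrial signal was 0.624 times as high at 45 as at 35 min. The share of signal at one place relative to another within a column is the same on every scale, and such values are given beside the folds.

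Labelled DNA was concentrated at few places in the first pulse and spread nearly evenly in the last. With Fkh1 OE, the tenth of 2 kb tiles with the most signal held 51.1%, 27.2% and 13.5% of the signal at 35, 45 and 55 min. The coefficient of variation over 5818 tiles was 1.58, 0.814 and 0.208. Tiles below 0.05 made up 65.2%, 17.6% and 0.120% of all tiles. In no OE cells the coefficient of variation was 2.09, 1.14 and 0.377, and 2.61% of tiles were below 0.05 at 55 min. Signal was thus spread more evenly in Fkh1 OE than in no OE cells in each of the 3 pulses. The order of the tiles was shared by the first and second Fkh1 OE columns (Spearman's rho 0.94 over 5818 tiles) and was lost between the first and the last (rho -0.0010). Over 317 origins, which share these columns, the first and the last pulse ran against each other (rho -0.79).

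Origins, defined as peaks of BrdU signal in hydroxyurea (HU), a drug that stops forks near the sites where they started, were measured in 2 kb windows, with positions in the build R64. Their median signal with Fkh1 OE was 0.207, 0.386 and 0.212 at 35, 45 and 55 min. At 45 against 35 min, 130 of 317 origins rose and 1 fell, with a median fold of 1.76. Over all tiles in that comparison 86.0% rose and 0.0173% fell, so origins rose less often than the genome at large. At 55 against 45 min, 27 origins rose and 133 fell, with a median fold of 0.567, while 42.8% of tiles rose and 12.0% fell. Both comparisons use the 45 min column. Relative to the nuclear mean of the same column, the median origin stood at 2.47, 1.87 and 0.904 times at the 3 times, and the median tile more than 10 kb from any origin at 0.149, 0.404 and 1.03 times.

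Origins were split into terciles by their signal in an HU column of other samples, the no OE control deposited beside cells that overexpress RNR3, a ribonucleotide reductase subunit. Early here means highest in that column. The origins themselves were called on the mean of HU columns of no OE, Fkh1 OE and Fkh2 OE cells. On the Fkh1 OE HU column alone 356 origins were called, and on the no OE HU column alone 241. The 106 early origins had medians of 0.517, 0.528 and 0.166 with Fkh1 OE at 35, 45 and 55 min. Their medians were close in the first and second pulse (median fold 1.03, 5 rose and 0 fell) and then fell at 95 of 106 (median fold 0.313). The 106 middle origins had medians of 0.179, 0.364 and 0.221, with 46 rising at 45 against 35 min and 29 falling at 55 against 45 min. The 105 late origins had medians of 0.111, 0.272 and 0.234, with 79 rising and 1 falling at 45 against 35 min (median fold 2.35) and 16 rising and 9 falling at 55 against 45 min (median fold 0.858). Relative to the nuclear mean the median late origin was at 1.33, 1.32 and 0.996 times. The median fold of late origins at 45 against 35 min was 0.951 with columns divided by the nuclear total, and 3.76 with the mitochondrial mean. In the last pulse the order of the classes was turned round, with the late median above the early one.

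**Figure D1:**
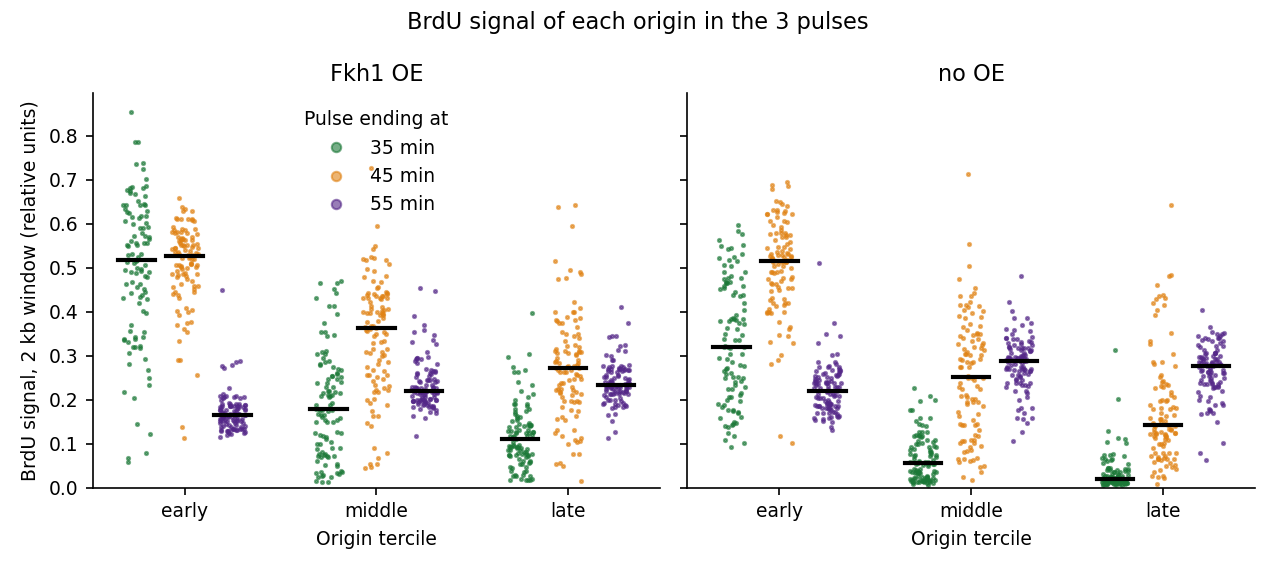
BrdU signal of each of 317 origins (y axis, mean of a 2 kb window, relative units) by origin tercile (x axis) in the pulses ending at 35, 45 and 55 min, for Fkh1 OE (left) and no OE (right). Each point is 1 origin and each black bar a median; with Fkh1 OE the early medians were 0.517, 0.528 and 0.166 and the late medians 0.111, 0.272 and 0.234.

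On the deposited scale the same classes reached their highest medians later, or rose further, in no OE cells. Early origins had medians of 0.321, 0.517 and 0.220 there, so the second pulse stood above the first (median fold 1.51), against 1.03 with Fkh1 OE. Late origins had medians of 0.0200, 0.143 and 0.278 in no OE cells, with a median fold of 1.95 at 55 against 45 min, against 0.858 with Fkh1 OE. Relative to the nuclear mean, early medians were 6.16, 2.55 and 0.706 times with Fkh1 OE and 8.16, 3.40 and 0.952 times in no OE cells, so their step from the first to the second pulse was alike (0.414 and 0.417 times). Late medians in no OE cells were at 0.508, 0.938 and 1.20 times, against the 1.33, 1.32 and 0.996 times with Fkh1 OE. The pulses of the 2 strains carry no replicate values, so these differences have no test. Origins called through the Fkh1 OE or Fkh2 OE HU signal and low in no OE cells fall into the late class. Part of the late difference between the strains can thus be built into the classes. The strains were not compared on origins called in no OE cells alone. Of the signal that an early origin gave over the 3 pulses, the median share in the first pulse was 42.8% with Fkh1 OE and 29.9% in no OE cells. For late origins that share was 18.2% with Fkh1 OE and 4.90% in no OE cells. With columns divided by the nuclear total the early share was 65.5% both with Fkh1 OE and in no OE cells, and the late shares were 36.7% with Fkh1 OE and 20.6% in no OE cells.

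By the pulse in which it was highest, an origin can be placed in the time course without a fold rule. With Fkh1 OE, 47 origins were highest at 35 min, 202 at 45 min and 68 at 55 min. In no OE cells the counts were 1, 163 and 153. Of the 153 origins that were highest at 55 min in no OE cells, 86 were highest at 45 min with Fkh1 OE and 67 were again highest at 55 min. Of the 163 that were highest at 45 min in no OE cells, 46 were highest at 35 min with Fkh1 OE and 1 at 55 min. These counts rest on the origin call, which used Fkh1 OE and Fkh2 OE HU columns too, and on the scale. With each column divided by its nuclear total, 221, 43 and 53 origins were highest in the 3 pulses with Fkh1 OE. With the mitochondrial mean the counts were 0, 169 and 148.

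**Figure D2:**
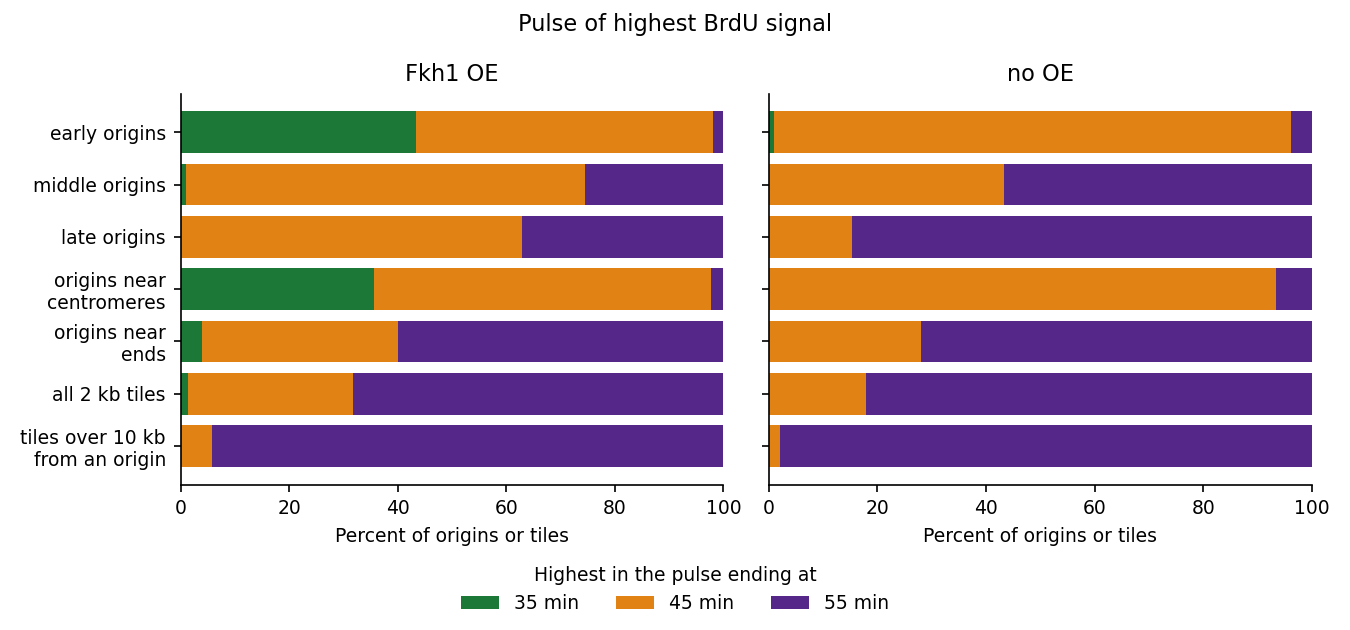
Percent of origins or 2 kb tiles (x axis) whose BrdU signal was highest in the pulse ending at 35, 45 or 55 min, for 7 classes (y axis), with Fkh1 OE on the left and no OE on the right, on the deposited scale. The share highest at 35 min is largest for early origins with Fkh1 OE, 43.4%, against 0.943% in no OE cells.

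The 47 origins that were highest in the first pulse with Fkh1 OE lay on 15 of 16 chromosomes, and 46 of them were early ones. The origin with the most signal at 35 min was beside TAH1, which encodes an Hsp90 cofactor, on chromosome III (223851 to 225850). It had 0.855, 0.580 and 0.152 with Fkh1 OE at 35, 45 and 55 min, against 0.459, 0.632 and 0.198 in no OE cells. The window beside FRM2, a nitroreductase-like gene (III 73601 to 75600), had 0.787, 0.639 and 0.134 with Fkh1 OE. That beside ECM22, a regulator of sterol genes (XII 602001 to 604000), had 0.787, 0.659 and 0.139. Next came HTB1, a histone H2B gene (IV 912901 to 914900), with 0.739, 0.586 and 0.123. On the deposited scale all 4 had less signal in the second pulse, at less than 2-fold. With the mitochondrial mean none of the 4 was below 1 (TAH1 was lowest, at 1.09). With columns divided by the nuclear total TAH1 stood at 0.275 times. Of the 8 highest origins at 35 min, 3 lay on chromosome III. The other 4 of the 8 were beside YGL006W-A, YCL049C and ECM9 and inside RCE1, a CAAX protease gene, at 0.686 to 0.737 at 35 min.

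Named origins of known timing were placed by their flanking genes. ARS305 (III 38251 to 40250, between APA1 and YCL049C) had 0.713, 0.570 and 0.160 with Fkh1 OE at 35, 45 and 55 min. ARS315 (III 224101 to 226100, between TAH1 and TVS1) had 0.877, 0.596 and 0.156. ARS416, also known as ARS1 (IV 461951 to 463950, between TRP1 and GAL3), had 0.614, 0.615 and 0.169. ARS607 (VI 198451 to 200450, between ROG3 and PES4) had 0.631, 0.584 and 0.127. All 4 are early origins, and all 4 fell at 55 against 45 min, to 0.218 to 0.281 times. On the deposited scale the late origins ran the other way. ARS501 (V 548601 to 550600, between DMC1 and ISC10) had 0.0656, 0.216 and 0.229 with Fkh1 OE, against 0.0120, 0.108 and 0.252 in no OE cells. ARS603 (VI 67901 to 69900, between MIL1 and RIM15) had 0.0678, 0.204 and 0.236 with Fkh1 OE, against 0.00644, 0.0583 and 0.247 in no OE cells. Both rose at 45 against 35 min with Fkh1 OE (3.29-fold and 3.01-fold) and moved little after that (1.06-fold and 1.16-fold). In no OE cells they rose again at 55 against 45 min, 2.32-fold and 4.23-fold. With columns divided by the nuclear total, the Fkh1 OE folds of ARS501 and ARS603 were 1.33 and 1.22 at 45 against 35 min. At 55 against 45 min they were 0.931 and 1.02 on that scale. With the mitochondrial mean they were 5.28 and 4.82 in the first comparison and 1.79 and 1.95 in the second.

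The largest folds of 45 against 35 min belonged to origins with little signal at 35 min. That signal is the lower term of the fold, so its low level is part of the ranking and not a separate result. TAF2 and FPR3, the first 2 of the ranking, were under 1.5 times background at 35 min and entered it through the 45 min column. The largest of all was inside TAF2, a TFIID subunit gene (III 203401 to 205400), at 0.174 at 45 min against 0.0171 at 35 min, 10.1-fold. It was followed by windows inside FPR3, a nucleolar prolyl isomerase gene (XIII 119651 to 121650, 8.85-fold), and RRP14, a ribosome assembly gene (XI 280401 to 282400, 7.78-fold). SIM1, QCR6, MTL1, REA1 and GNA1 held the other 5 windows, at 5.92-fold to 7.15-fold. All 8 lay inside genes, had 0.0171 to 0.0394 at 35 min and were highest at 55 min. None was an early origin. At 35 min all 8 were below their flanks, the mean of the DNA 10 to 20 kb away on both sides, at 0.0785 to 0.494 times. At 45 min all but SIM1 (1.02 times) were still below them. At 55 min all 8 were above their flanks, at 1.28 to 2.02 times. At the other end, the window beside GEX1 at the left end of chromosome III (1 to 1800) had 0.0148 at 45 min against 0.0552 at 35 min, 0.269-fold. It is the 1 origin that fell on the deposited scale. The next 6 in that order, with PAU8 at the left end of chromosome I after them, were early origins led by the TAH1 window. They stood at 0.679 to 0.782 times, not past 2-fold, and at 0.275 to 0.317 times with columns divided by the nuclear total. With the mitochondrial mean they stood above 1, at 1.09 to 1.25 times.

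At 55 against 45 min the largest falls were at early origins. The window beside ECM9 (XI 447201 to 449200) had 0.125 at 55 min against 0.608 at 45 min, 0.205-fold. FRM2 (0.209-fold), HTB1 (0.210-fold), DAL2, the allantoicase gene (IX 410751 to 412750, 0.211-fold), and ECM22 (0.212-fold) came next, before ROG3, ANY1 and HOG1, the osmostress kinase gene (XII 372051 to 374050, 0.227-fold). All 8 were early origins at 0.571 to 0.659 at 45 min and 0.123 to 0.139 at 55 min. Among the 298 origins with at least 1.5 times background in 1 of these pulses, the largest rises were at PAU16 at the left end of chromosome XI (1 to 1000), with 0.374 at 55 min against 0.113 at 45 min, 3.30-fold, and inside INO80, a chromatin remodelling gene (VII 224451 to 226450), with 0.410 against 0.126, 3.27-fold. YIR042C at the right end of chromosome IX (438851 to 439888, 3.24-fold), RRP14 (2.32-fold), FPR3 (2.15-fold), NAB3, a transcription termination gene (XVI 186401 to 188400, 2.10-fold), and the flocculin genes FLO5 and FLO9 (2.08-fold and 2.05-fold) followed. Of these, YIR042C is in the early class. The placing of reads from repeats is not stated in the sources at hand, and whether these windows lie in repeats was not examined. PAU16 was under 1.5 times background at 45 min and entered through the 55 min column. Origins below that limit in both pulses had folds of up to 13.4, at GEX1. Of the 27 origins that rose, 13 lay inside genes and 7 within 2 kb of a chromosome end, where 10 of all 317 lay.

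Windows inside genes had a lower median than those beside them in the first and second pulse and a higher one in the last. The 91 inside a protein-coding gene had medians of 0.140, 0.317 and 0.233 with Fkh1 OE at 35, 45 and 55 min, and the 226 beside genes had 0.240, 0.40 and 0.202. Early origins lay inside genes in 15.1% of cases and late ones in 36.2%. In the early tercile the 16 inside genes had medians of 0.503, 0.552 and 0.177, and the 90 beside genes 0.527, 0.521 and 0.164, so that the order in the second pulse was turned round. Within the late tercile the 38 inside genes had medians of 0.0785, 0.247 and 0.263, and the 67 beside genes 0.126, 0.276 and 0.230. The peaks were called in HU, and whether each is an origin was not tested.

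Whether an origin stood above its surroundings was measured within a column, as its signal over the mean of the DNA 10 to 20 kb away on both sides. With Fkh1 OE the median of 315 origins was 5.49 at 35 min, 1.83 at 45 min and 0.841 at 55 min. At least 2-fold above their flanks were 227, 135 and 1 of 315 origins at the 3 times, and below them were 60, 54 and 222. For early origins the median ratio was 9.65, 1.86 and 0.645, and 98 of 106 were below their flanks at 55 min. For late origins it was 2.97, 1.54 and 0.982. ARS315 had a ratio of 19.8, 2.00 and 0.517, and ARS607 had 8.23, 1.61 and 0.438. ARS501 had 1.92, 1.54 and 0.959, and ARS603 had 6.51, 3.58 and 1.06. Early origins were peaks in the first pulse and troughs in the last, and late ones were level with their flanks in the last. In no OE cells the median ratio was 4.29, 2.19 and 1.01 over all 315, and 17.4, 2.23 and 0.714 over early origins. At 35 min the early ratio was lower with Fkh1 OE than without. The flank levels themselves were not compared between the strains. The median of tiles over 10 kb from any peak, which is not the flank level, was 0.0125 with Fkh1 OE and 0.00665 in no OE cells. Of the 60 origins below their flanks at 35 min with Fkh1 OE, 49 were below them in no OE cells too, and 28 lay inside genes.

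Labelled DNA lay further from origins in each later pulse. Mean signal within 1 kb of an origin was 0.274 at 35 min with Fkh1 OE and had come down to the mean of that and the level at 25 to 30 kb, here its mid-height, at 5.08 kb. At 45 min it was 0.380 within 1 kb, with mid-height at 10.4 kb, which is 5.35 kb further out for a pulse that ended 10 min later. At 55 min it was 0.215 within 1 kb and was highest, at 0.260, between 16 and 17 kb. The 55 min signal lay above the 45 min signal from 8.92 kb on. Around early origins the mid-height was at 5.51 kb at 35 min and 11.6 kb at 45 min, and the last pulse was lowest at the origin (0.168) and highest between 19 and 20 kb (0.284). Around late origins the mid-height was at 4.57 kb and 8.70 kb, and the last pulse was highest between 7 and 8 kb (0.252).

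**Figure D3:**
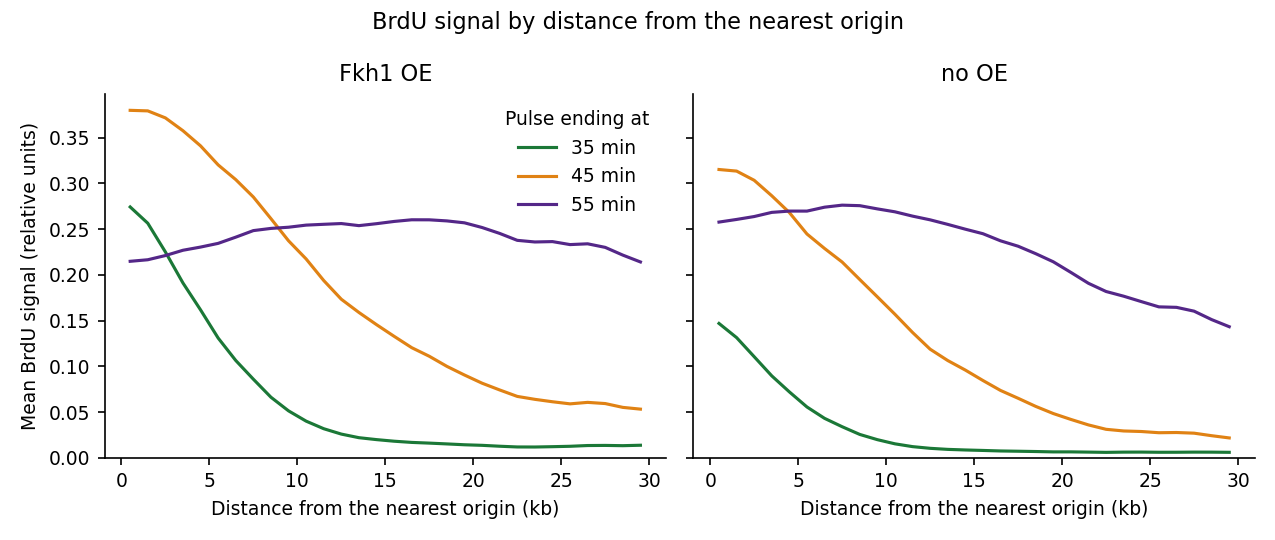
Mean BrdU signal (y axis, relative units) of 500 bp tiles by distance from the nearest origin in steps of 1 kb (x axis), in the pulses ending at 35, 45 and 55 min, with Fkh1 OE on the left and no OE on the right. With Fkh1 OE mid-height was reached at 5.08 kb at 35 min and 10.4 kb at 45 min, and the 55 min line lies above the 45 min line from 8.92 kb on, against 4.42 kb in no OE cells.

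Over all origins, mid-height was at 5.08 kb with Fkh1 OE and 4.25 kb in no OE cells at 35 min, and at 10.4 kb and 9.79 kb in the same order at 45 min. The shift between the pulses was 5.35 kb with Fkh1 OE and 5.55 kb in no OE cells. Around late origins it was 4.12 kb with Fkh1 OE and 2.58 kb in no OE cells, and around early origins 6.14 kb with Fkh1 OE and 7.02 kb in no OE cells. At 55 min the profiles differed in shape: signal between 25 and 30 kb averaged 0.227 with Fkh1 OE, above the 0.215 at origins, and 0.157 in no OE cells, below their 0.258 at origins. These are means over tiles of many origins that differ in timing, so that they are not the speed of single forks.

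Between neighbouring origins, labelling midway came later in longer gaps, up to gaps of 40 to 60 kb. Midway in gaps of up to 20 kb (91 gaps) the median signal with Fkh1 OE was 0.189, 0.437 and 0.227 at 35, 45 and 55 min. In gaps of 20 to 40 kb (92) it was 0.0185, 0.173 and 0.264. In gaps of 40 to 60 kb (54) it was 0.00907, 0.0515 and 0.252, and in gaps of 60 to 80 kb (30) 0.00925, 0.0328 and 0.192. The middle of the short gaps was highest at 45 min in 76 of 91 cases, and that of every gap over 40 kb at 55 min. At 55 against 45 min the signal midway fell in 43 of 91 short gaps and rose in 48 of 54 gaps of 40 to 60 kb. Over all tiles 12.0% fell and 42.8% rose in that comparison. In gaps over 80 kb (24) the medians were 0.0106, 0.0529 and 0.195 with Fkh1 OE, and 0.00631, 0.0161 and 0.107 in no OE cells. With Fkh1 OE these longest gaps thus had more 45 min signal than gaps of 60 to 80 kb. Their median fold of 55 against 45 min was 3.54, against 5.97 in gaps of 60 to 80 kb. Gaps of 40 to 60 kb had 0.193 at 55 min in no OE cells, against 0.252 with Fkh1 OE.

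**Figure D4:**
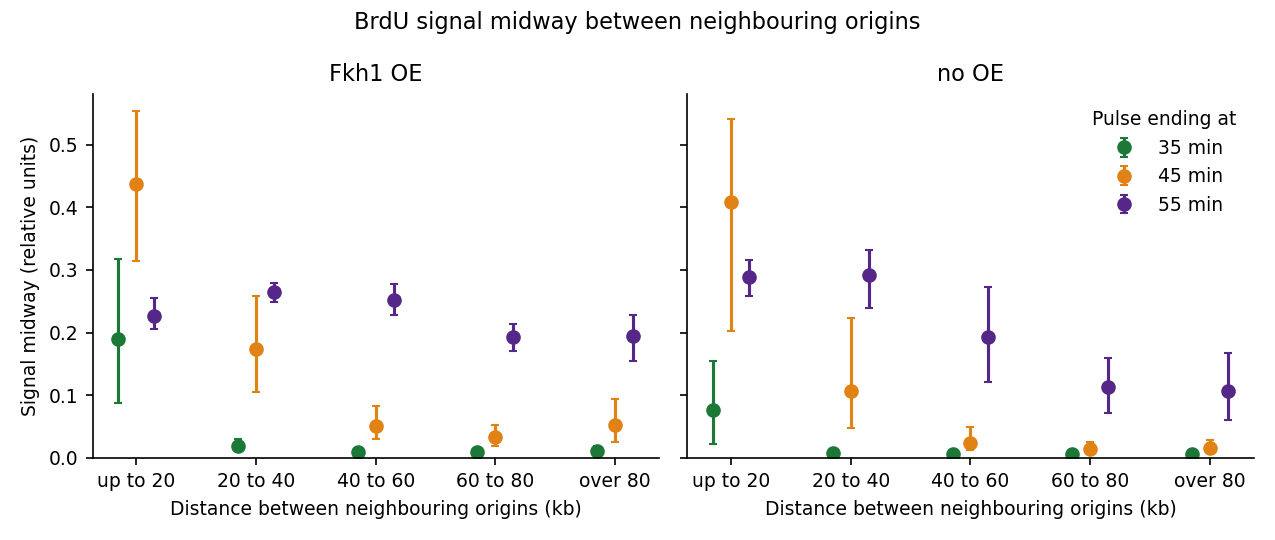
Median BrdU signal midway between neighbouring origins (y axis, 2 kb window, relative units; bars span the quartiles of the gaps) by length of the gap (x axis) in the pulses ending at 35, 45 and 55 min, with Fkh1 OE on the left and no OE on the right. With Fkh1 OE the 45 min signal falls from 0.437 in gaps of up to 20 kb to 0.0515 in gaps of 40 to 60 kb, while the 55 min signal stays between 0.192 and 0.264 in all 5 classes.

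Most tiles more than 10 kb from an origin rose in both steps. Their median was 0.0125, 0.0836 and 0.242 with Fkh1 OE, with 3113 of 3182 rising at 45 against 35 min (median fold 5.71) and 2207 of 3189 at 55 against 45 min (median fold 2.88). In the same comparisons 86.0% and 42.8% of all tiles rose. In no OE cells the medians of the tiles more than 10 kb from an origin were 0.00665, 0.0321 and 0.198, with median folds of 5.57 and 5.38. Of these tiles, 94.2% were highest at 55 min with Fkh1 OE. The latest of them, by the fold of 55 against 35 min, had next to no signal in the first pulse. A tile beside YHR054C (VIII 212001 to 214000) had 7.57e-05, 0.00521 and 0.0625. Tiles inside the transposon genes YBL005W-B (II 222001 to 224000) and YDR261W-B (IV 982001 to 984000) had 0.125 and 0.0796 at 55 min. Of the 8, 3 lay in transposon genes, which are repeated in the genome, and the placing of reads from repeats is not stated in the sources at hand. The tile beside THP3 (XVI 654001 to 656000), at 0.00331, 0.0761 and 0.289, and that inside GEX2 near the right end of chromosome XI (662001 to 664000), at 0.00123, 0.0197 and 0.167, are outside transposon genes. Whether any of the 8 lies in other repeats was not examined.

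Chromosomes were ordered by the mean of the 3 pulse ends, weighted by signal. With Fkh1 OE this ran over 2.68 min, with chromosome III first at 46.0 min and XIV last at 48.6 min. These minutes rest on the scale: with columns divided by the nuclear total, III was at 42.8 min and the range was 3.17 min. Chromosome III had means of 0.167, 0.307 and 0.235 at 35, 45 and 55 min, and XIV had 0.0632, 0.176 and 0.236. On the chromosomes III, I, VI and IX, signal at 55 min was below that at 45 min (0.764 to 0.969 times), and on XIV it was 1.34 times as high. With columns divided by the nuclear total, 9 chromosomes in place of 4 had less signal at 55 than at 45 min. All 16 means were within 0.224 to 0.251 at 55 min, beside 0.0613 to 0.167 at 35 min. The earlier chromosomes were shorter (Spearman's rho of time with length 0.69, n = 16) and held more origins per 100 kb (rho -0.75, n = 16), and chromosomes differ in both at once. The order was close to that of no OE cells (rho 0.92, n = 16), where III was first at 47.6 min and XIV last at 50.4 min on the deposited scale.

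**Figure D5:**
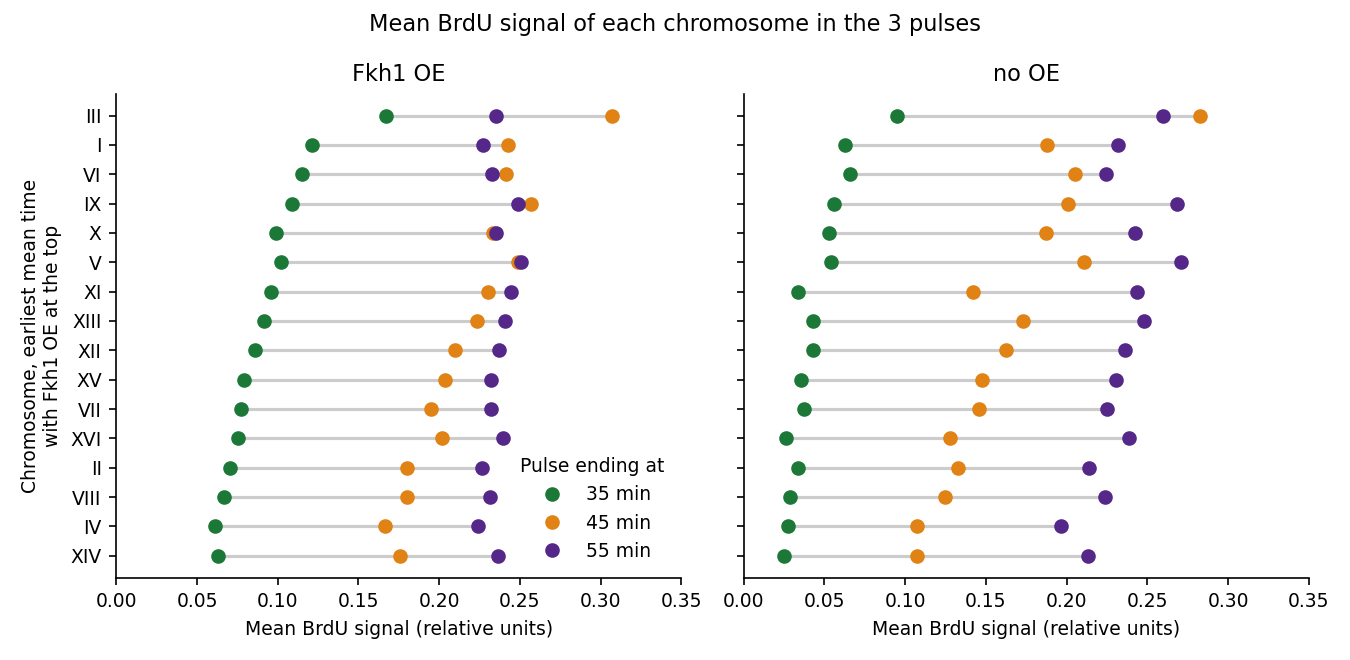
Mean BrdU signal of each nuclear chromosome (x axis, relative units) in the pulses ending at 35, 45 and 55 min, with Fkh1 OE on the left and no OE on the right, and chromosomes ordered on the y axis by their mean time with Fkh1 OE, earliest at the top. The 55 min means with Fkh1 OE lie between 0.224 and 0.251 while the 35 min means run from 0.0613 to 0.167.

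Around centromeres, which replicate early in this yeast, signal was highest in the second pulse at most centromeres on the deposited scale. In a 2 kb window at each of 16 centromeres, the lowest, median and highest signal with Fkh1 OE was 0.0384, 0.209 and 0.656 at 35 min, 0.235, 0.449 and 0.599 at 45 min, and 0.131, 0.203 and 0.295 at 55 min. At 45 against 35 min 10 of 16 rose, and at 55 against 45 min 10 of 16 fell. Over all tiles 86.0% rose in the first comparison and 12.0% fell in the second. The centromere of chromosome II was highest at 35 min (0.656, 0.486 and 0.131) and that of VI at 55 min (0.0384, 0.235 and 0.295), and the other 14 were highest at 45 min. The 45 origins within 20 kb of a centromere had medians of 0.491, 0.524 and 0.169 with Fkh1 OE, and 0.296, 0.512 and 0.231 in no OE cells. Relative to the nuclear mean the same origins were highest in the first pulse, at 5.86, 2.53 and 0.719 times with Fkh1 OE, and tiles within 20 kb of a centromere were at 3.16, 2.47 and 0.914 times.

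With Fkh1 OE, chromosome ends ran late. The 25 origins within 30 kb of an end had medians of 0.0681, 0.194 and 0.236 with Fkh1 OE, against 0.0631, 0.118 and 0.206 in no OE cells. With Fkh1 OE 15 rose and 1 fell at 45 against 35 min, and 12 rose and 2 fell at 55 against 45 min. Over all origins 41.0% rose in the first comparison and 8.52% in the second, and over all tiles 86.0% and 42.8%. In the second comparison 42.0% of all origins and 12.0% of all tiles fell. Relative to the nuclear mean the end origins stood at 0.812, 0.938 and 1.01 times with Fkh1 OE. In no OE cells they stood at 1.60, 0.779 and 0.894 times, highest in the first pulse. On that scale their median fold of 45 against 35 min with Fkh1 OE was 0.965 in place of 2.38. Their mean time, weighted by deposited signal, had a median of 48.8 min with Fkh1 OE and 48.5 min in no OE cells. Over all origins it was 45.2 min with Fkh1 OE and 48.3 min in no OE cells. Tiles within 5 kb of an end had 0.0101, 0.0344 and 0.181 with Fkh1 OE, and those 25 to 30 kb away 0.0173, 0.104 and 0.229. The ribosomal DNA array on chromosome XII kept 1 tile with enough covered bins, at 0.0852, 0.228 and 0.207.

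Genes with roles in S phase, galactose use or the forkhead programme were read over their bodies. Of the 8 core histone genes, the 6 at HTA1-HTB1, HTA2-HTB2 and HHT1-HHF1 had 0.486 to 0.682 at 35 min with Fkh1 OE and fell at 55 against 45 min. Over all tiles 12.0% fell in that comparison. HTB1 had 0.682, 0.573 and 0.118 at 35, 45 and 55 min. The HHT2-HHF2 pair on chromosome XIV, which encodes the same histones H3 and H4 as HHT1-HHF1, was late: HHT2 had 0.0257, 0.246 and 0.280, and HHF2 had 0.0173, 0.195 and 0.299. Of the 7 galactose genes 6 rose at 45 against 35 min, a share like the 86.0% of all tiles. GAL3, next to ARS416, had 0.564, 0.547 and 0.173 and fell at 55 against 45 min, while GAL1, the galactokinase gene, had 0.0225, 0.133 and 0.240. GAL7 and GAL10, beside GAL1, had 0.0301, 0.243 and 0.292, and 0.0145, 0.177 and 0.239.

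The genes listed as CLB2 cluster, a group of Fkh1 and Fkh2 targets expressed in G2 and M phase, had a median of 0.0956, 0.311 and 0.242 with Fkh1 OE. Of these 12 genes, 8 rose and 0 fell at 45 against 35 min, and 2 rose (HST3 and SPO12) and 2 fell (CLB2 and CDC5) at 55 against 45 min. Both counts of rises are lower shares than those of all tiles, 86.0% and 42.8%, and 12.0% of tiles fell in the second comparison. CLB2, the mitotic cyclin gene, had 0.242, 0.431 and 0.205 with Fkh1 OE, against 0.130, 0.374 and 0.274 in no OE cells. YPT11, a Rab-type GTPase gene, had 0.266, 0.431 and 0.216 with Fkh1 OE, against 0.0155, 0.176 and 0.274 in no OE cells. HST3, a histone deacetylase gene, had 0.0208, 0.0666 and 0.202 and was among the latest of the list. Of the 4 cohesin ring genes, SMC1 had 0.342, 0.511 and 0.206 and SMC3 had 0.0436, 0.180 and 0.267, and 3 rose at 45 against 35 min while SMC1 and MCD1 fell at 55 against 45 min, beside 86.0% of tiles that rose in the first comparison and 12.0% that fell in the second.

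Among the forkhead genes, FKH1 at its annotated place on chromosome IX had 0.180, 0.366 and 0.198 with Fkh1 OE. In no OE cells it had 0.0650, 0.293 and 0.316. The labels do not say whether the galactose-driven FKH1 is a second copy, and reads from one would be counted here too. The FKH1 values are thus not read as the timing of that place, though FKH1 is kept in the counts below. FKH2 had 0.115, 0.304 and 0.278 with Fkh1 OE, against 0.0166, 0.121 and 0.303 in no OE cells. HCM1, which acts earlier in the cycle, had 0.411, 0.585 and 0.202 and fell at 55 against 45 min, and FHL1, a regulator of ribosomal protein genes, had 0.0142, 0.0687 and 0.213 and rose in both steps. On the deposited scale 3 of these 4 rose at 45 against 35 min (median fold 2.34), beside 86.0% of tiles, and the median fold was 0.950 with columns divided by the nuclear total. Of 6 mating-type genes, 2 could be measured: HMRA1 had 0.00662, 0.0395 and 0.189, and HMRA2 had 0.00470, 0.0326 and 0.184. Both are placed near the right end of chromosome III in the build R64 and rose in both steps. Mating-type sequences are repeated in the genome, and the placing of reads from repeats is not stated in the sources at hand. The values are thus not read as the timing of that place.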

How the data were processed

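BrdU immunoprecipitation sequencing was measured in 12 Fkh1 OE and 12 no OE samples. Per the labels' protocols, DNA fragments of about 300 bp were barcoded and pooled in equal amounts, and 1 µg of the pool went into the IP and 20 ng served as Input. The deposited signal is never negative and holds, for each 50 bp bin, 1 value a group that the authors made from its libraries. The steps of merging, smoothing and scaling are not stated in the sources at hand. The submitters' processing notes name Bowtie2, SAMtools, bedtools, TopHat2, Cufflinks, Cuffdiff and the build R64. The deposited RNA table holds the authors' FPKM and, per the file headers, p-values and q-values. Per-sample columns that matched no sample numbered 0, and no depth is known.

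The members, gene lists and rules were chosen with earlier results of these data known. Bins listed at 0 in all 6 time-course columns (3.58%) were treated as missing, and windows needed 50% of their bins. Origins were local maxima of the mean of 3 HU columns (no OE, Fkh1 OE and Fkh2 OE) after a 1 kb running mean, at least 3 times the genome median and 5 kb apart, with at least 1.5 times background, the median of tiles over 10 kb from a peak. Of 319 peaks, 1 lay in the ribosomal DNA, 1 had too few covered bins and 317 were used. Gene positions were those of RefSeq's R64 table, centromeres the middle between the innermost genes of both arms, and the 6 ARS loci the middle between 2 flanking genes. Where a pulse was 0 in the lower term of a fold (26 tiles at 35 min), no fold was given. With 1 column a group no test was possible, and a 2-fold size rule was used, as planned for a table without counts per library. Named were, in each comparison, the 8 origins with the largest and the 8 with the smallest fold among those at 1.5 times background in 1 of the 2 pulses, the 8 highest at 35 min, the 8 tiles at least 10 kb from an origin with the largest fold of 55 against 35 min (1 for each 20 kb), and the genes and ARS loci of fixed lists. Ratios to flanks and to the nuclear mean, midpoints, crossing distances, windows inside and beside genes, and scale alternatives for classes, gene lists, first-pulse shares and opposite folds were chosen after seeing the data. Computation used Python 3.11.15, numpy 2.4.6 and pandas 2.3.3, with matplotlib 3.10.9 for the plots, and the measuring code was tested on simulated data. The DNA sequence of the origins is not shown.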

Additional observations from a re-analysis of the deposited data

Results flagged for a closer look

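On the deposited scale some folds lay on opposite sides of 1 in the 2 strains and at least 2-fold apart. No difference listed here was tested, since each strain has 1 column a pulse. The origins were called partly on Fkh1 OE and Fkh2 OE HU columns, which can put origins low in no OE cells into the late class. At 55 against 45 min late origins had, as their median fold, 0.858 with Fkh1 OE and 1.95 in no OE cells, and the forkhead genes 0.727 with Fkh1 OE and 1.79 in no OE cells. The forkhead median includes FKH1, where reads from a second, galactose-driven copy could be counted. Single genes with the same pattern at 55 against 45 min were YPT11 (0.501 with Fkh1 OE and 1.55 in no OE cells), FKH2 (0.914 and 2.51 in the same order), GAL4 (0.789 and 1.81) and IRR1 (0.838 and 1.72). At 45 against 35 min, ARS315 had 0.680 with Fkh1 OE and 1.43 in no OE cells, and the window beside TAH1, which overlaps it, 0.679 and 1.38. The window at PAU16 ran the other way, at 1.87 with Fkh1 OE and 0.771 in no OE cells. Over all 317 origins at 55 against 45 min, 61 were below 1 with Fkh1 OE, above 1 in no OE cells and at least 2-fold apart, and 1 showed the reverse; these counts were 29 and 2 with columns divided by the nuclear total, and 16 and 1 with the mitochondrial mean. The folds of ARS315, TAH1 and PAU16 were on the same side of 1 in both strains on each of these scales (for ARS315 0.275 with Fkh1 OE and 0.371 in no OE cells with the nuclear total). All the others stayed opposite with the nuclear total, and of these YPT11 alone did with the mitochondrial mean (0.845 with Fkh1 OE and 2.26 in no OE cells).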

How the results depend on the processing

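No paired analysis was possible because each group has 1 combined column, and for the same reason no replicate could be left out. Of 375 recomputed values, 219 stayed within 1.5 times. Of 286 recomputed folds 31 changed side of 1, which were 12 under the nuclear total, 16 under the mitochondrial mean and 3 under other windows or terciles (among them late origins at 55 against 45 min, at 1.11 with terciles of the Fkh1 OE HU column). The 2 other scales move every fold of a comparison by 1 factor: log2 shifts of -1.30 and 0.68 at 45 against 35 min, and -0.18 and 0.76 at 55 against 45 min, for the nuclear total and the mitochondrial mean. With the nuclear total, median folds of 45 against 35 min that had been past 2-fold turned below 1 for late origins (0.951), origins near ends (0.965) and forkhead genes (0.950) with Fkh1 OE, and for no OE origins (0.919). So did smaller median folds of all (0.712), early (0.416), middle (0.763) and centromere-proximal origins (0.452), centromere-proximal tiles (0.770) and histone genes (0.409). With the mitochondrial mean, median folds of 55 against 45 min turned above 1 for middle (1.03) and late origins (1.45) and for the galactose (1.33), CLB2-cluster (1.29), cohesin (1.12) and forkhead genes (1.23). Beyond these factors the cause was not tested. With the nuclear total and Fkh1 OE, 13 origins rose and 91 fell at 45 against 35 min, beside 43.3% of tiles that rose (median 1.79). On that scale 221 and 43 origins were highest at 35 and 45 min, and so were 1005 and 1118 tiles. In no OE cells 154, 68 and 95 origins were then highest at 35, 45 and 55 min, with 664 tiles highest at 35 min, tile medians of 1.55 and 2.24 in the 2 steps and an origin median of 0.632 at 55 against 45 min. With the mitochondrial mean, 225 origins rose at 45 against 35 min (median 2.82, tiles 7.08), and at 55 against 45 min 51 rose and 44 fell (median 0.956), with a tile median of 2.77 and 2.46% of tiles falling. Then 0 and 148 origins were highest at 35 and 55 min, and 1 and 941 tiles at 35 and 45 min.

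Other origin calls tested fewer or different origins. With the no OE HU column alone (241 origins) 73 rose at 45 against 35 min, and with peaks of 10 times the genome median (172 origins) 10 rose then and 1 at 55 against 45 min. A 3-fold rule left 55 rising at 45 against 35 min, and 13 rising and 69 falling at 55 against 45 min, with 4.50% of tiles falling, against 19.2% with a 1.5-fold rule. Mid-heights moved by less than 1.5 times. Depth is unknown, so what it limits cannot be given.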
